A study of Mus musculus with 6 samples.

Results

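The protocadherins are the largest group of cadherin adhesion proteins of the brain, and their expression was compared between whole brains of heterozygous periphilin knockout mice and of wild-type littermates. The members were all probe sets annotated to exactly 1 gene whose symbol begins with Pcdh. These came to 62 of 45101 probe sets on the array and stood for 35 of the 18193 genes with such a probe set, 23 of them clustered (29 probe sets) and 12 other protocadherins (33 probe sets). The heterozygous group comprised 3 male mice aged 2 months with 1 disrupted copy of periphilin (Pphln1), a subunit of the HUSH silencing complex. The control group comprised 3 male C57BL/6 wild-type littermates of the same age, and each brain had an array of its own. No Cre driver, transgene or drug is named in the labels for either group, and the sources used here do not say which part of Pphln1 is disrupted.

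Clustered protocadherins are encoded by the alpha, beta and gamma gene clusters, which lie side by side in the genome. Each alpha or gamma gene contributes a variable first exon that is spliced to constant exons shared within its cluster, whereas each beta gene has a single coding exon. Single neurons express small sets of these genes, chosen partly by promoter methylation, CTCF and cohesin, and the resulting surface identities serve self-avoidance of neurites and synapse formation. The other protocadherins are scattered in the genome and mostly belong to the delta families, which are expressed in regional patterns and act in axon sorting, cell movement and signalling to the actin cytoskeleton. In whole-brain RNA, fewer cells of a type and less RNA per cell cannot be told apart.

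The values are deposited probe-set intensities, compared as log2(intensity + 16), a scale that understates changes of dim probe sets. Probe sets differ in how strongly they bind, so a higher intensity is not read as more RNA of 1 gene than of another. A probe set was tested where its mean over the 6 arrays exceeded the 40th percentile of all, an intensity of 18.4, which left 27022. Of the members, 44 were tested (18 clustered, for 16 genes, and 26 other, for 11 genes). At 11 clustered and 7 other probe sets the mean was 1.95 to 17.8, too dim to test. Of these 18, 8 had a lower and 10 a higher mean in heterozygous brains, and the genotypes overlapped at each. The members nearest the limit were a Pcdhb11 probe set at 17.8, not tested, and a Pcdh7 probe set at 19.0, tested. Pphln1 itself did not pass at either probe set, with log2 differences of 0.081 and -0.36 (limma adjusted p = 0.969 and 0.956).

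No protocadherin probe set passed the test between genotypes (limma, adjusted by Benjamini-Hochberg over the 27022 tested, threshold 0.05). The adjusted p of the 44 tested members lay between 0.956 and 0.997, and 0.0148% of all probe sets passed. At an unadjusted p below 0.05 there was 1 member, a Pcdh9 probe set, of 44, against 4.83% of all probe sets. That count was 3 under median centring, with array weights, and without heterozygous 1, heterozygous 2 or wild-type 3, and 2 without heterozygous 3 or wild-type 2. The share of all probe sets below that p was counted in the main fit only, so these counts have no share beside them. In sign, 22 of the 27 tested genes were lower in heterozygous brains by their brightest probe set, against 48.0% of the 13024 genes tested. They comprised 12 of 16 clustered and 10 of 11 other genes. By probe set, 32 of 44 were lower, against 47.7% of all. At 7 of the 44 probe sets every heterozygous brain was lower than every wild-type brain, against 4.81% of all probe sets. At none was every heterozygous brain higher, against 5.43% of all. The 7 were Pcdhb7, both tested Pcdhb21 probe sets and 1 probe set each of Pcdh7, Pcdh8, Pcdh9 and Pcdh19.

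Of the clustered genes, the beta genes were the best covered. All 22 had a member, 15 of them a tested one, and intensities were low, with means of 20.5 to 188. Beta genes are similar in coding sequence, so a probe set named for 1 gene may bind transcripts of others. How far this happens was not checked here, so values of single beta genes are uncertain. Pcdhb1, Pcdhb4, Pcdhb6, Pcdhb11, Pcdhb13, Pcdhb14 and Pcdhb18 had no tested probe set. The median log2 difference of the 16 clustered genes was -0.13, beside 0.0068 over all genes tested. Without the dim filter, 15 of all 23 clustered genes were lower in sign, against 47.6% of all genes in that fit.

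Pcdhb21 had a pair of tested probe sets, and both were lower in sign. At 1420422_at it measured 54.1, 45.4 and 61.5 in heterozygous brains 1 to 3 and 66.3, 68.1 and 68.1 in wild-type brains 1 to 3. The genotypes did not overlap, and the wild-type brains lay close together (SD 1.04, against 8.08 among heterozygous brains). The log2 difference was -0.27 (SE 0.15; adjusted p = 0.956 by limma), with a 95% interval of -0.60 to 0.06. The dimmer 1438106_at measured 30.1 ± 1.48 against 38.3 ± 6.26 (SD, n = 3 each), again without overlap, a log2 difference of -0.23 (SE 0.17). Pcdhb7 measured 67.0, 81.0 and 83.5 in heterozygous brains 1 to 3 and 98.0, 84.5 and 91.9 in wild-type brains 1 to 3. Here the gap between the genotypes was narrow, from 83.5 to 84.5, and the log2 difference was -0.21 (SE 0.14). The exact permutation p of each of these 3 probe sets was 0.1, the smallest that 3 against 3 brains can give.

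Pcdhb16 measured 54.9, 54.4 and 77.4 in heterozygous brains 1 to 3 and 76.4, 107 and 69.6 in wild-type brains 1 to 3 at 1441994_at. Heterozygous brain 3 exceeded both wild-type 1 and wild-type 3, so the genotypes overlapped, and the log2 difference was -0.35 (SE 0.18), or -0.20 without wild-type brain 2. Its dimmer tested probe set, 1441358_at, lay at -0.062 (SE 0.20). Pcdhb22, the last gene of the beta cluster, measured 33.6, 29.0 and 28.2 in heterozygous brains 1 to 3 and 46.2, 49.1 and 31.3 in wild-type brains 1 to 3, with overlap through wild-type 3 and a log2 difference of -0.32 (SE 0.18). Pcdhb2 stood highest on the other side at 44.9, 24.3 and 39.1 in heterozygous brains 1 to 3 and 25.2, 24.7 and 19.9 in wild-type brains 1 to 3. Heterozygous brain 2 lay among the wild-type values, and the log2 difference was 0.39 (SE 0.20). Pcdhb15 lay at 0.096 (SE 0.17) and Pcdhb12 at 0.021 (SE 0.17), the latter with its sign turned under median centring. Also lower in sign were Pcdhb5 at -0.21 (SE 0.21), Pcdhb17 at -0.15 (SE 0.14), Pcdhb20 at -0.12 (SE 0.15) and Pcdhb19 at -0.081 (SE 0.19).

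**Figure D1:**
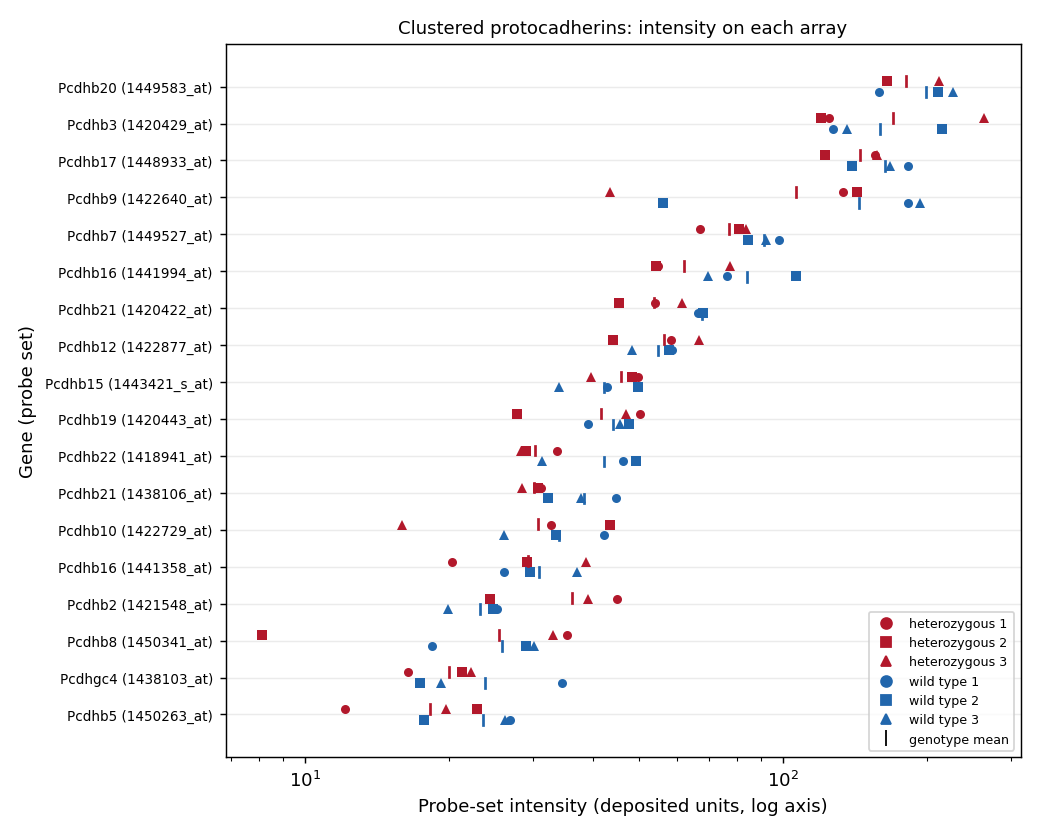
Intensity of each tested clustered protocadherin probe set (log axis, deposited units) on the 3 heterozygous (red) and 3 wild-type (blue) arrays, with a bar at each genotype's mean. The genotypes separate at both Pcdhb21 probe sets and at Pcdhb7 and overlap at the others, and Pcdhb9 and Pcdhb3 each hold 1 brain of either genotype far from the other 4.

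The widest spread in the beta cluster was not between genotypes. Pcdhb9 measured 134, 143 and 43.4 in heterozygous brains 1 to 3 and 183, 56.0 and 194 in wild-type brains 1 to 3. Heterozygous brain 3 and wild-type brain 2 were low, and the other 4 brains lay between 134 and 194. Its standard deviation within genotypes, 0.83 on the log2 scale, exceeded that of 99.8% of all tested probe sets. Pcdhb3 measured 125, 120.3 and 264 in heterozygous brains 1 to 3 and 128, 215 and 136 in wild-type brains 1 to 3. The same 2 brains were the high ones here, at 264 and 215, with the other 4 between 120.3 and 136. The log2 ratio of Pcdhb3 to Pcdhb9 was 2.24 and 1.68 in those brains and -0.47 to -0.089 in the other 4. Pcdhb3 and Pcdhb9 were singled out after their values had been seen.

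Between genotypes, Pcdhb9 lay at -0.36 (SE 0.43) with an interval of -1.30 to 0.58. It was 0.096 without heterozygous brain 3 and -0.86 without wild-type brain 2. Pcdhb3 lay at 0.029 (SE 0.26). Pcdhb8 and Pcdhb10 also varied more within genotypes than over 90% of tested probe sets, each with 1 brain lowest by a margin. Pcdhb8 measured 8.11 in heterozygous brain 2 and 18.4 to 35.3 in the others, and lay at -0.079 (SE 0.28). Pcdhb10 measured 15.9 in heterozygous brain 3, the lowest brain at Pcdhb9 too, and 26.1 to 43.5 in the others. Between genotypes, Pcdhb10 lay at -0.13 (SE 0.24).

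**Figure D2:**
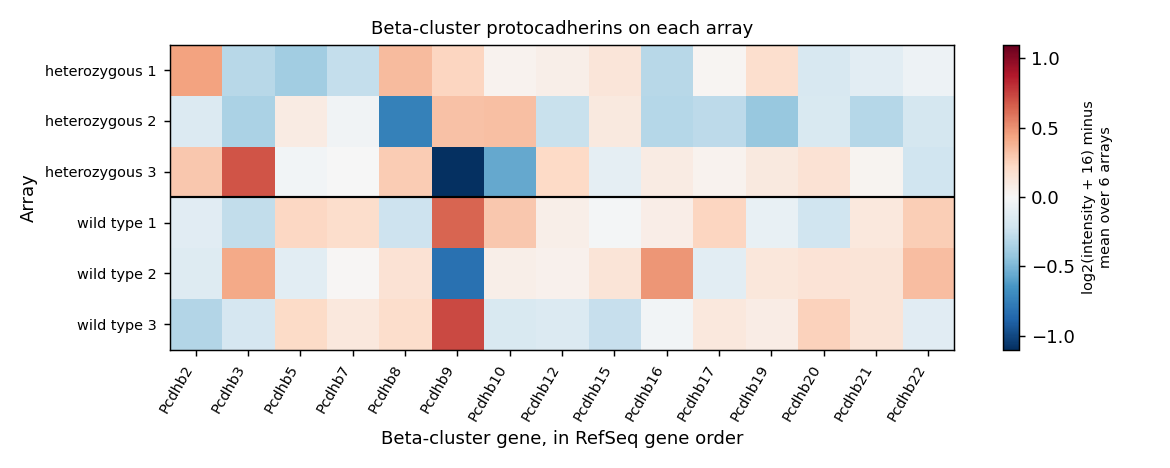
Beta-cluster genes with a tested probe set, in their RefSeq gene order (x axis), on each array (y axis); colour gives log2(intensity + 16) minus the gene's mean over the 6 arrays. Heterozygous 3 and wild type 2 are the high arrays for Pcdhb3 and the low ones for Pcdhb9.

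The gamma cluster was represented by Pcdhgc4 alone, whose product has a role in neuronal survival. It measured 16.4, 21.3 and 22.2 in heterozygous brains 1 to 3 and 34.5, 17.4 and 19.3 in wild-type brains 1 to 3. Wild-type 1 was high, the other 5 brains lay between 16.4 and 22.2, and the log2 difference was -0.12 (SE 0.21). No member named a single alpha gene. Another 6 probe sets were annotated to several alpha genes at once and were not members, and 3 of them were tested. The brightest, 1420798_s_at, measured 1168 ± 19.5 against 1255 ± 36.1 (SD, n = 3 each) without overlap between the genotypes, a log2 difference of -0.10 (SE 0.076). The others lay at -0.18 (SE 0.099) and -0.24 (SE 0.14). The 3 share the alpha cluster's transcripts and are not separate observations of it.

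Among the other protocadherins, the delta1 family holds Pcdh1, Pcdh7, Pcdh9 and Pcdh11x. Pcdh9, a neuronal adhesion gene of cortex, gave the lowest unadjusted p of all members. Its promoter is shown with those of Pcdh8 and Pcdh19, because these 3 genes have the lowest moderated t among the other protocadherins. Each window covers 250 bases before to 50 bases after a transcript start in RefSeq (build GRCm38.p6, minus strand), at chr14:93890630-93890929 for Pcdh9, chr14:79771263-79771562 for Pcdh8 and chrX:133688944-133689243 for Pcdh19. Capitals mark CGCT, the core of the element shared by most clustered protocadherin promoters, and its reverse complement AGCG, with overlapping matches counted separately.
Pcdh9: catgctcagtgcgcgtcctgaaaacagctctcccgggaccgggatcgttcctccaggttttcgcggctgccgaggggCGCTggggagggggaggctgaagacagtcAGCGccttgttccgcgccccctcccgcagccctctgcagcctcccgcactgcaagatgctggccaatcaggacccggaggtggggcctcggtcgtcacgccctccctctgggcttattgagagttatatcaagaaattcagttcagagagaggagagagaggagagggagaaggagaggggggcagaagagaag
Pcdh8: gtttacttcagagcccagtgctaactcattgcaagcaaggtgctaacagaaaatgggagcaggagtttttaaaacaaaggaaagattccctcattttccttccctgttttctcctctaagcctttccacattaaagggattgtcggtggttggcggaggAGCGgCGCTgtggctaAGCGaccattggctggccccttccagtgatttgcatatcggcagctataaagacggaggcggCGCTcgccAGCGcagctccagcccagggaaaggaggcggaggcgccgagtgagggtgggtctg
Pcdh19: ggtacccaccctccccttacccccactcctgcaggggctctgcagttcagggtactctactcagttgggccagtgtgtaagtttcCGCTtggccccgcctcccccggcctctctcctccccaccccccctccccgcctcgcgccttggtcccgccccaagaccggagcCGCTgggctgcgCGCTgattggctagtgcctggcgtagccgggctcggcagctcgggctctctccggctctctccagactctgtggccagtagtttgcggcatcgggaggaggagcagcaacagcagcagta
The windows held 2, 5 and 3 matches in the order printed, and 18, 14 and 18 CG dinucleotides. The median over all windows was 7 CG dinucleotides, and 29.7%, 36.3% and 29.7% of all windows held at least as many as these. Of all 32851 promoter windows of this length, 61.8% held at least 1 match. Windows were read for 9 of the 12 other protocadherins, and each of those 9 held a match. The motif itself contains a CG, so a window with more CG has more places for a match. Windows of like CG content were not compared, so these matches are no sign of enrichment. Pcdh9 has a second listed window with a start 10 bases away, not printed. The windows of Pcdh1, Pcdh11x, Pcdh12 and the clustered genes were not used here.

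At 1429861_at, Pcdh9 measured 834, 1010.2 and 1099 in heterozygous brains 1 to 3 and 1204, 1150.2 and 1164 in wild-type brains 1 to 3. Every heterozygous brain was below every wild-type brain, and heterozygous 1 was lowest. The log2 difference was -0.26 (SE 0.10; adjusted p = 0.956 by limma), a ratio of 0.834 with 95% limits of 0.713 and 0.975. The unadjusted p was 0.027 and the exact permutation p 0.1. Without heterozygous brain 1, the difference was -0.15 with an unadjusted limma p of 0.121, and without an intensity trend on all 6 arrays that p was 0.071. Without wild-type 1 or wild-type 3 the unadjusted limma p was 0.0731 or 0.0552. It was 0.0352 without heterozygous 2, 0.00802 without heterozygous 3 and 0.0412 without wild-type 2. The other Pcdh9 probe sets showed no such separation. At 1442659_at the gene measured 873 ± 44.9 against 862 ± 84.1 (SD, n = 3 each), a log2 difference of 0.022 (SE 0.094), and at 1458269_at it lay at 0.0079 (SE 0.11). The log2 ratio of 1429861_at to 1442659_at was -0.0067, 0.23 and 0.25 in heterozygous brains 1 to 3. In wild-type brains 1 to 3 it was 0.64, 0.33 and 0.35. This ratio, examined after the values had been seen, was lower in each heterozygous brain (difference -0.28, exact permutation p = 0.1). The files do not say which Pcdh9 transcripts each probe set covers.

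Pcdh7, whose cytoplasmic tail binds protein phosphatase 1, was lower in sign at its 3 tested probe sets. At the brightest, 1456214_at, it measured 526 ± 16.3 against 586 ± 92.7 (SD, n = 3 each), a log2 difference of -0.14 (SE 0.11), and the genotypes overlapped. At 1427592_at it measured 35.6, 32.1 and 27.6 in heterozygous brains 1 to 3 and 43.1, 47.2 and 35.6 in wild-type brains 1 to 3. There the highest heterozygous value lay below the lowest wild-type value by less than their rounding, and the log2 difference was -0.28 (SE 0.17). At 1449249_at, near the dim limit, it lay at -0.063 (SE 0.23). Pcdh1, best known from epithelia, was dim, at 28.4, 14.2 and 15.3 in heterozygous brains 1 to 3 and 22.7, 30.1 and 28.5 in wild-type brains 1 to 3. Heterozygous brains 2 and 3 were lowest, heterozygous 1 was among the wild-type values, and the log2 difference was -0.31 (SE 0.21), or -0.49 without heterozygous 1. The X-linked Pcdh11x was the only other protocadherin gene higher in sign by its brightest probe set. It lay at 0.086 (SE 0.11) and 0.085 (SE 0.13) by its 2 probe sets, with overlap at both, and at 0.0023 by the brighter without wild-type 1.

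The delta2 family holds Pcdh8, Pcdh10, Pcdh17, Pcdh18 and Pcdh19, and each of the 5 was lower in sign by its brightest probe set. Pcdh8, also called arcadlin, is induced by neuronal activity and promotes endocytosis of N-cadherin at synapses. At 1417051_at it measured 465, 446 and 397 in heterozygous brains 1 to 3 and 542, 501 and 469 in wild-type brains 1 to 3. The closest pair was heterozygous 1 and wild-type 3, and the genotypes did not overlap. The log2 difference was -0.20 (SE 0.097; adjusted p = 0.956 by limma), with an interval of -0.42 to 0.01. At the brighter 1447825_x_at it measured 742 ± 50.6 against 834 ± 112 (SD, n = 3 each), with overlap, a log2 difference of -0.16 (SE 0.10). An _x_at probe set can bind related transcripts, so the brighter value is uncertain.

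Pcdh19, mutated in a female-limited epilepsy, measured 449, 376 and 414 in heterozygous brains 1 to 3 and 483, 457 and 478 in wild-type brains 1 to 3 at 1455145_at. Wild-type brains lay close together and above every heterozygous brain, and the log2 difference was -0.19 (SE 0.094; adjusted p = 0.956 by limma). Its other probe sets lay at 0.0037 (SE 0.11) and 0.018 (SE 0.17), and both turned below 0 under median centring, as did the 2 dimmer Pcdh9 probe sets and Pcdhb3. Pcdh10, which guides axons of striatum and thalamus, had 6 tested probe sets, from -0.21 (SE 0.12) at 1430667_at to 0.11 (SE 0.13) at 1425563_s_at. By the brightest, 1438134_at, it measured 422 ± 34.4 against 449 ± 44.4 (SD, n = 3 each), a log2 difference of -0.085 (SE 0.10). The genotypes overlapped at all 6.

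Pcdh17, which acts in presynaptic assembly of corticobasal circuits, measured 618 ± 90.2 against 639 ± 94.5 (SD, n = 3 each) at 1453070_at, a log2 difference of -0.047 (SE 0.13), and lay at 0.038 (SE 0.11) by its other probe set. Pcdh18 was at -0.071 (SE 0.17), with 2 more probe sets too dim to test. Outside the delta families, Pcdh20 had the smallest spread within genotypes of all tested members at 1424701_at, which measured 292, 279.9 and 289 in heterozygous brains 1 to 3 and 284, 293 and 307 in wild-type brains 1 to 3, and a log2 difference of -0.035 (SE 0.091). Its interval, -0.24 to 0.17, spans 0.849 and 1.12 times the wild-type level. Pcdh15, a hair-cell tip-link protein also expressed in oligodendrocyte precursors, lay at -0.016 (SE 0.16). Pcdh12, a gene of endothelial cells, had 3 probe sets, all below the dim limit.

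**Figure D3:**
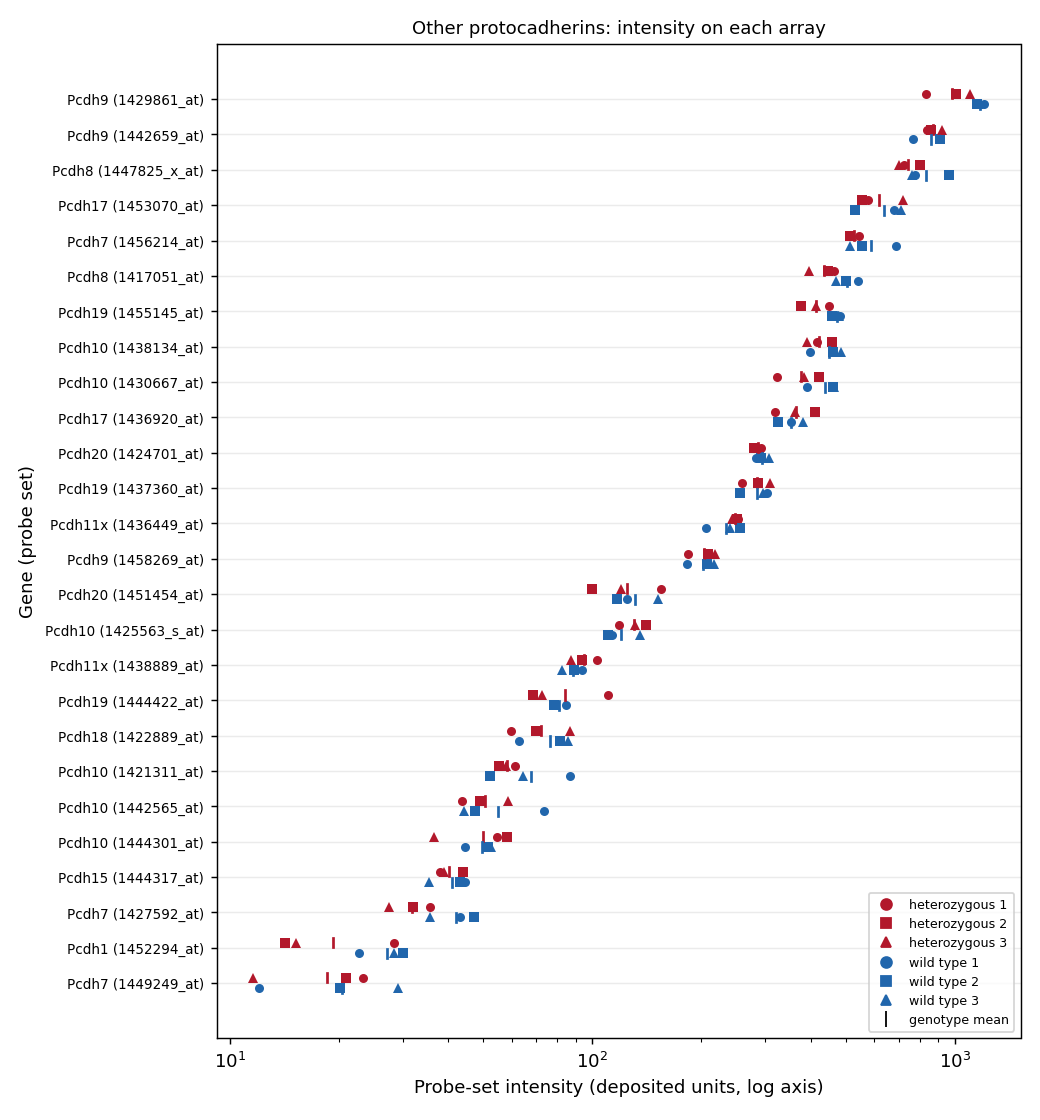
Intensity of each tested probe set of the other protocadherins (log axis, deposited units) on the 3 heterozygous (red) and 3 wild-type (blue) arrays, with a bar at each genotype's mean. The genotypes separate, with heterozygous brains lower, at 1 probe set each of Pcdh9, Pcdh8, Pcdh19 and Pcdh7, while further probe sets of the same genes overlap.

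The intervals show what the arrays could resolve. At 24 of the 26 tested probe sets of other protocadherins, and at 7 of the 18 clustered ones, the 95% interval excluded a change of 1.5 times in either direction on the log2(intensity + 16) scale. Over all probe sets the share was 75.9%. The median standard error was 0.12 for other and 0.19 for clustered members, beside 0.15 over all probe sets. At the other 11 clustered probe sets, the interval reached a change of 1.5 times in at least 1 direction.

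**Figure D4:**
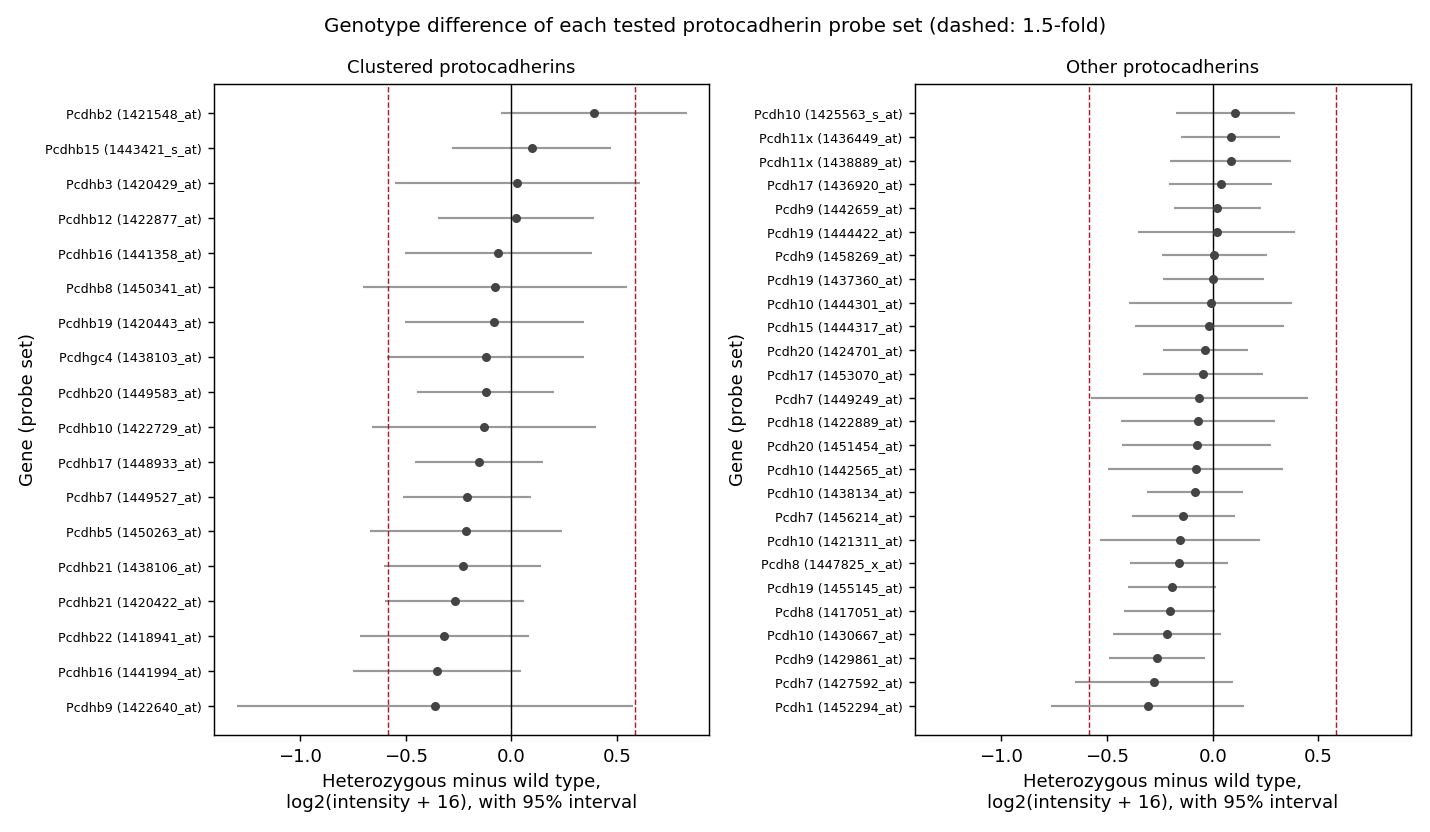
Difference between heterozygous and wild-type brains on the log2(intensity + 16) scale (x axis) with its 95% interval from limma, for each tested probe set (y axis) of clustered (left) and other (right) protocadherins; dashed lines mark a change of 1.5 times. Most points lie left of 0, the interval of Pcdh9 at 1429861_at alone lies wholly below 0, and Pcdhb9 has the widest interval.

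Clustered genes were compared with the other protocadherins by their levels on each array. The 16 clustered genes were 15 beta genes and Pcdhgc4, so the alpha cluster had no part in this comparison. The median log2 difference was -0.13 over the 16 clustered and -0.085 over the 11 other genes, each by its brightest probe set, beside 0.0068 over all genes tested. The gap between the 2 medians was -0.041. It was -0.12 with a pseudocount of 1 and turned to 0.0017 with a pseudocount of 64, to 0.053 without heterozygous brain 2 and to 0.026 without wild-type brain 1. The tested clustered probe sets were dimmer (median intensity 43.0, against 221 for the others), where the scale understates changes more. On each array, the class level was taken as the mean over genes of the log2 value minus the gene's mean over the 6 arrays. For clustered genes it was -0.022, -0.15 and -0.0054 in heterozygous brains 1 to 3 and 0.10, 0.044 and 0.032 in wild-type brains 1 to 3. For other protocadherins it was -0.061, -0.073 and -0.034 in heterozygous brains 1 to 3 and 0.024, 0.076 and 0.067 in wild-type brains 1 to 3. Each heterozygous brain lay below each wild-type brain in both classes, with heterozygous 3 and wild-type 3 closest among clustered genes. The level of clustered genes relative to the others was 0.039, -0.076 and 0.029 in heterozygous brains 1 to 3 and 0.076, -0.032 and -0.036 in wild-type brains 1 to 3, without separation of the genotypes. These levels describe lists assembled with earlier results known, so no test was made on them.

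The median of clustered genes was -0.13 over every tested probe set and -0.13 with probe sets averaged per gene. For the other protocadherins, 18 of 26 tested probe sets were lower, with a median of -0.067, and with probe sets averaged per gene the median was -0.071. Averaged in that way, the heterozygous levels of other protocadherins were -0.017, -0.058 and -0.05 and the wild-type levels 0.0093, 0.049 and 0.067. Leaving out 1 brain at a time, 8 to 9 of the 11 other genes were lower, and 10 to 15 of the clustered genes, which numbered 16, or 17 without heterozygous brain 2. Of all genes, 46.9% to 49.3% were lower in those fits. Median centring moved the share of all genes that were lower from 48.0% to 58.1%, where 14 of 16 clustered and 10 of 11 other genes were lower.

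**Figure D5:**
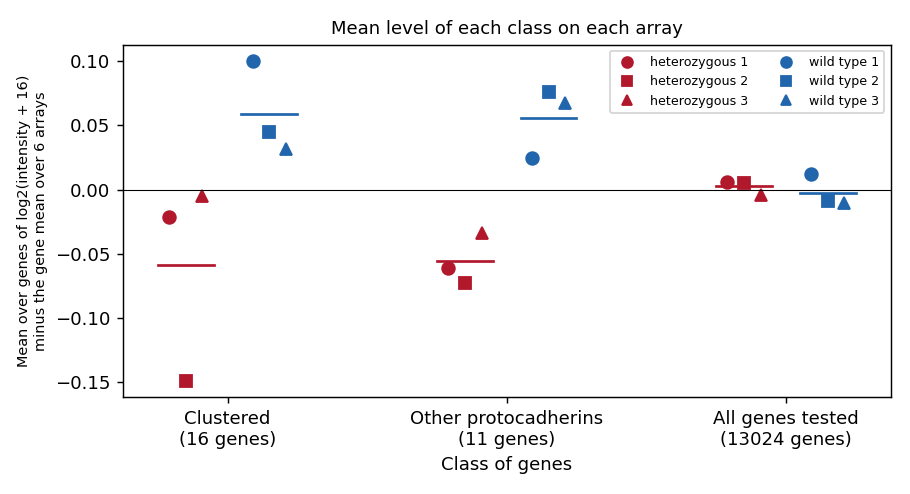
Mean over genes of log2(intensity + 16) minus the gene's mean over the 6 arrays (y axis), for 16 clustered protocadherins (15 beta genes and Pcdhgc4), 11 other protocadherins and all 13024 genes tested (x axis). Points are arrays, red heterozygous and blue wild type, and lines are genotype means. In both protocadherin classes the heterozygous points lie below the wild-type points, from -0.15 to -0.0054 against 0.032 to 0.10 among clustered genes. Over all genes they overlap near 0. A mean over 13024 genes on arrays with the same trimmed mean stays near 0. It therefore does not show how far lists as small as these vary between arrays.

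Related genes were read from the same fit in 6 lists, and none of their 74 measured members passed over all probe sets in either direction. Of 15 classical and type II cadherins, the homophilic adhesion receptors, 7 were lower in sign (median 0.027), from Cdh9 at -0.44 (SE 0.13) to Cdh4 at 0.20 (SE 0.11). Of 8 giant and seven-pass cadherins, which act in planar polarity, 4 were lower (median 0.0031), from Celsr1 at -0.39 (SE 0.20) to Fat2 at 0.35 (SE 0.13). Celsr1 was dim, with means of 15.9 in heterozygous and 25.8 in wild-type brains. Of 8 catenins, which link classical cadherins to actin, 5 were lower (median -0.014), from Ctnna1 at -0.24 (SE 0.091) to Arvcf at 0.18 (SE 0.16). Each of these 3 lists held genes of both signs, and under median centring their medians were -0.0077, -0.032 and -0.049 in the order given.

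Of 11 genes of CTCF and cohesin, which loop clustered promoters to enhancers, 6 were lower (median -0.019, or -0.054 under median centring). The 11 ran from the cohesin subunit gene Rad21 at -0.43 (SE 0.13) to Smc3, another subunit, at 0.17 (SE 0.15). Pds5b, a cohesin-associated factor, had the highest moderated t, with a log2 difference of 0.10 (SE 0.086). Rad21 measured 929.9, 1072 and 1230.0 in heterozygous brains 1 to 3 and 1757, 1286 and 1341 in wild-type brains 1 to 3. Of 17 silencers linked to the clusters, 6 were lower (median 0.024, or -0.011 under median centring). The 17 ran from the heterochromatin protein gene Cbx1 at -0.24 (SE 0.20) to Setdb1 at 0.36 (SE 0.13). Setdb1 is a histone methyltransferase that acts on the clusters in neurons. The list includes Pphln1 itself, the disrupted gene, at 0.081 by its brighter probe set. Of 15 actin regulators and kinases that relay protocadherin signals, 9 were lower (median -0.025, or -0.0595 under median centring). The 15 ran from Rhoa at -0.12 (SE 0.088) to Wasf3 at 0.22 (SE 0.24). Wasf3 was dim, with means of 27.8 in heterozygous and 22.2 in wild-type brains. Nckap1 had the highest moderated t, with a log2 difference of 0.11 (SE 0.08).

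Of markers of brain cells, neuronal Snap25 had a mean of 8044 in heterozygous and 7799.8 in wild-type brains, and Mbp of myelin had means of 9127 and 8461. No marker of the 10 cell-type and tissue lists passed the test. All 5 neuron markers were higher in sign (median 0.08), with summed intensities of 19188 to 22174 in heterozygous and 19415 to 19793 in wild-type brains, but 4 under median centring and 3 under quantile normalization. All 3 interneuron markers were lower (median -0.12), or 2 of 3 under quantile normalization (median -0.15), with sums of 4943 to 5346 and 5262 to 6008. Pituitary markers were lower in sign at 5 of 5, with sums of 170.4 to 6685 and 769 to 21194, the highest in wild-type brain 1. At each of these 5 markers, heterozygous brain 3 exceeded wild-type brains 2 and 3. The other 7 lists each held markers of both signs, except that choroid plexus markers were lower at 5 of 5 under quantile normalization. The part of these markers in the protocadherin values was not tested.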

How the data were processed

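Whole-brain RNA of 3 heterozygous and 3 wild-type mice was measured on 1 Affymetrix-type array per brain, from biotin-labelled cRNA primed with oligo(dT), per the labels' protocols. The authors' deposited values are linear probe-set intensities, 1 per probe set and array. The summarising software is not stated in the labels. A trimmed mean over the central 96% of values came to 150 on each array, a sign of scaling before deposit, and array medians were 31.2 to 34.5. Arrays correlated at 0.978 to 0.985. The number of arrays limits the precision. The first heterozygous title carries no number and was numbered 1.

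Control probe sets (64) were left out. Probe sets were named from the platform annotation, with symbols updated through Entrez identifiers against RefSeq genes of GRCm38.p6, which left the 62 members as annotated. Intensities were compared as log2(value + 16) without further normalization, after removal of probe sets at or below the 40th percentile, with limma 3.58.1 (R 4.3.3; lmFit, eBayes with intensity trend, two-sided, Benjamini-Hochberg over 27022 probe sets). Summaries used Python 3.11.15. Single values also had two-sided exact permutation tests, whose smallest p is 0.1. The brightest tested probe set stood for each gene. The steps were tested on simulated data.

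The members and lists were chosen with earlier results of these data known. Given in full were members at an unadjusted p below 0.05 or a difference of 0.3 or more (log2) in size, the 3 highest and 3 lowest of each class by moderated t, and the extremes of each related list by moderated t (Smc3 and Wasf3, extremes by size, were added after their values were seen), with other members by level. Alternatives were other normalizations, pseudocounts, dim filters, moderation settings, array weights, a replicate block, other choices of probe sets and leaving out each array. All 6 arrays entered the main fit.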

Additional observations from a re-analysis of the deposited data

How the results depend on the processing

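No protocadherin probe set was called in the main fit, in the 10 other fits on all arrays, or with any 1 array left out. Over all probe sets, 4 were called, 1 without an intensity trend and 1 without the dim filter, and 1 to 14 with single arrays left out (14 without heterozygous 1, 1 without heterozygous 2, 2 without heterozygous 3 or wild-type 3). The median of clustered genes was -0.13, moving to -0.21 under the 60th percentile filter and -0.20 with a pseudocount of 1, and ran from -0.22 (without heterozygous 3) to -0.068 (without heterozygous 2). That of other protocadherins was -0.085, or -0.12 under median centring, with a span of -0.16 (without wild-type 1) to -0.065 (without wild-type 2) when 1 array was omitted. The difference of the medians was -0.041, moving to -0.12 under the 60th percentile filter and -0.12 with a pseudocount of 1, and ran from -0.099 to 0.053 with single arrays left out. Among the members given in full, signs turned at Pcdhb12 (-0.014 under median centring, and -0.082 to 0.15 when 1 array was omitted), Pcdhb15 (-0.0093 to 0.19) and Pcdhb9 (-0.86 to 0.096). Pcdhb3 and the dimmer probe sets of Pcdh9 and Pcdh19 also turned under median centring. The cause of these changes was not tested.

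Same-numbered brains did not deviate together (correlations of deviations from the genotype means 0.082, 0.202 and -0.018), so the numbers were not taken to pair animals. With the replicate block, 5 probe sets were called over the table and 0 protocadherins, and the lowest protocadherin adjusted p by limma was 0.66. There, 4 of 44 had an unadjusted p below 0.05, and the share of all probe sets below that p was not counted. The number of arrays limits what could be resolved.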
